A study of Drosophila melanogaster with 8 samples.

Results

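The chemoreceptor genes of the fly head comprise 3 families: the odorant receptor (Or), ionotropic receptor (Ir) and gustatory receptor (Gr) genes. Their members were taken as every row of the deposited count table whose symbol was Orco or consisted of Or, Gr or Ir followed by a number and lower-case letters. This gave 122 of the 13781 rows, of which 35 were Or, 36 Ir and 51 Gr genes, and all 122 equalled a symbol of the RefSeq annotation of the Release 6 assembly. That annotation holds 186 symbols of this form, and the other 64 had no row and were not analysed here. The table has 0 rows without a count in any library.

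Heads were profiled by 3′ RNA-seq, a method that reads the ends of polyadenylated transcripts, in Drosophila melanogaster, with 8 libraries. Heads of the genotype Actin-gal4/+; UAS-rowRNAi1/+ gave 2 libraries (row_RNAi1), those of Actin-gal4/+; UAS-rowRNAi2/+ gave 3 (row_RNAi2), and the Actin-gal4/+ controls gave 3. All groups carried the Gal4 driver, a yeast transcription factor expressed in most tissues under the Actin promoter, and in both RNAi lines it drives a hairpin RNA against row, which encodes a zinc-finger chromatin protein. No UAS insertion is named for the control, so that each line differs from the control by its transgene and its background as well as by the knockdown. All flies were kept at 25 °C with 12 hours of light and 12 of dark, and were given 3 days of recovery from CO2 exposure. Age and sex are not given in the sources used here, nor is it stated whether replicate libraries stem from independent fly cohorts, so the p-values reflect a library-to-library spread that may be technical.

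Insect odorant receptors work as complexes of a tuning receptor, which sets the ligands of the neuron, with the shared co-receptor Orco, which is needed to carry the tuning receptors to the cilia. Ionotropic receptors descend from glutamate receptors and likewise pair tuning subunits with the co-receptors Ir8a, Ir25a or Ir76b. Most tuning Or genes are expressed in small sets of neurons of the third antennal segment or the maxillary palp. Gustatory receptors act mainly in taste neurons of the labellum, pharynx and legs, with Gr21a and Gr63a, which form the antennal carbon dioxide receptor, as an exception.

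Library totals ran from 6230666 counts (row_RNAi2 replicate 1) to 18046699 (row_RNAi1 replicate 2), with 17952015 in row_RNAi1 replicate 1, 11212213 and 10678460 in row_RNAi2 replicates 2 and 3, and 7015874, 9437287 and 8974606 in control replicates 1 to 3. Levels are given as CPM, counts relative to TMM-scaled library totals, and 1 count equalled between 0.0578 CPM (row_RNAi1 replicate 2) and 0.164 CPM (row_RNAi2 replicate 1). The targeted gene row stood at 5.93 and 4.22 CPM in row_RNAi1 heads and at 8.03, 5.97 and 8.27 CPM in row_RNAi2, against 14.3, 14.9 and 12.0 CPM in controls. It fell by 1.17 on the log2 scale on average over the lines (SE 0.15, edgeR BH-adjusted p = 1.8e-05, where BH is the Benjamini-Hochberg adjustment over all genes tested and edgeR stands for its quasi-likelihood F test). Marker lists of other head cells were present in all libraries: 7 photoreceptor genes summed to 22508 to 25651 CPM, 6 neuron genes to 544 to 651 CPM and 4 glia genes to 950 to 1228 CPM. Row_RNAi1 replicate 1 and control replicate 2 stood apart from the rest of their groups in several odorant-binding protein genes of the antenna, and the family sums, the Orco calls and the antennal genes are also given without both.

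The receptor genes were rare in these libraries. Together they took 530 and 505 counts in row_RNAi1, 178, 346 and 355 in row_RNAi2, and 292, 326 and 365 in controls, which is 0.0028% to 0.00416% of each total. Of the 122 rows, 82 had fewer than 10 counts over the 8 libraries together, 26 had 10 to 49 and 14 had 50 or more. Counts were present in all 8 libraries for 22 genes and in 1 library alone for 30. The median control level of the receptor rows was 0.0743 CPM, against 6.74 CPM over all rows. A number of known antennal receptors were near the floor: Or42b of vinegar-sensing neurons had 0 counts in all 3 controls, as did Or92a, and Gr21a had 0 as well. The 5 most counted genes made up 69.8% of Or counts, 84.6% of Ir counts and 56.4% of Gr counts, as the plot of counts by rank shows. These are shares of reads and were not divided by transcript length.

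**Figure D1:**
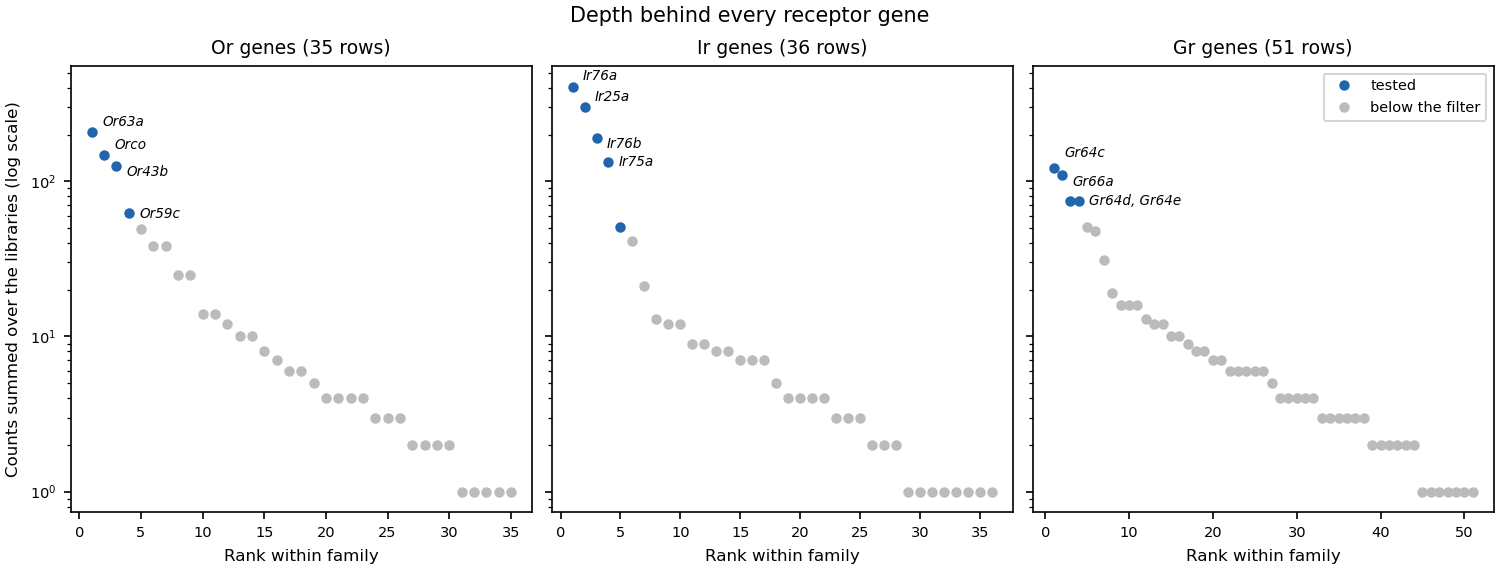
Counts of every receptor gene summed over the 8 libraries (y axis, log scale) against its rank within its family (x axis), for 35 Or, 36 Ir and 51 Gr genes. Blue points are the 13 genes that passed the low-count filter, which start at 51 counts, and grey points are the 109 below it.

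The first comparison sets the summed level of each family in knockdown heads against the controls. All receptor genes together summed to 32.1 and 29.2 CPM in row_RNAi1 heads and 29.2, 31.3 and 31.6 CPM in row_RNAi2, against 38.3, 33.7 and 40.7 CPM in controls. The Or sum stood at 9.14 and 9.41 CPM in row_RNAi1 heads and at 8.69, 7.69 and 7.65 CPM in row_RNAi2, against 12.2, 12.1 and 11.3 CPM in controls. All 5 knockdown libraries lay below all 3 controls. The group means were 9.28 ± 0.196 CPM in row_RNAi1 heads (SD, n = 2) and 8.01 ± 0.589 CPM in row_RNAi2 heads (SD, n = 3), against 11.8 ± 0.512 CPM in controls (SD, n = 3), or 78.3% and 67.6% of control. Without row_RNAi1 replicate 1 and control replicate 2 these were 80.2% and 68.2%. Counting error alone leaves wide margins: the 95% exact Poisson interval was 7.74 to 10.7 CPM for row_RNAi1 replicate 1, against 9.17 to 13.7 CPM for control replicate 3. Such intervals cover counting error only, since reads without molecular identifiers are not independent molecules. In heads measured in bulk, fewer receptor neurons and less RNA per neuron cannot be told apart. The glia list was separated in the same way, with 959.7 and 949.7 CPM in row_RNAi1 heads and 1053, 1169.7 and 1144 CPM in row_RNAi2, against 1228, 1192 and 1209 CPM in controls, or 78.9% and 92.8% of control. Row_RNAi1 stood at 90.5% of control for the photoreceptor list and 89.0% for the neuron list, and row_RNAi2 at 98.4% and 95.8%. The part of such shifts in the receptor sums was not tested. Sums over the members carry no p-value, because the members were chosen with results of these data known.

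Orco carried much of this difference. Without it, the Or sum was 7.74 and 8.20 CPM in row_RNAi1 heads and 7.70, 6.42 and 6.94 CPM in row_RNAi2, against 9.58, 9.09 and 8.25 CPM in controls. The groups then came close to overlapping, and the means were 88.9% (row_RNAi1) and 78.2% (row_RNAi2) of control. Without Or63a, the most counted Or gene, as well, the groups overlapped. Both lines then reached 6.06 CPM, against a lowest control of 5.91 CPM.

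The Gr sum was 7.14 and 7.16 CPM in row_RNAi1 heads and 8.52, 8.86 and 8.18 CPM in row_RNAi2, against 10.2, 10.1 and 11.8 CPM in controls. Again no knockdown library reached the lowest control. The means, 7.15 ± 0.0154 CPM in row_RNAi1 heads (SD, n = 2) and 8.52 ± 0.341 CPM in row_RNAi2 heads (SD, n = 3), were 66.7% and 79.5% of the 10.7 ± 0.95 CPM in controls (SD, n = 3). Gr64d and Gr64e overlap and had the same count in every library, so that the same reads may be counted for both. With Gr64d left out the percentages were 68.4% in row_RNAi1 and 79.0% in row_RNAi2, and without row_RNAi1 replicate 1 and control replicate 2 they were 64.9% and 77.3%. Over the 37 Gr rows that overlap no other annotated gene, the groups overlapped. There row_RNAi2 reached 4.43 CPM and the lowest control stood at 4.13 CPM, with means at 69.0% (row_RNAi1) and 79.0% (row_RNAi2) of control.

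The Ir sum showed no such separation. It was 15.8 and 12.6 CPM in row_RNAi1 heads and 12.0, 14.7 and 15.7 CPM in row_RNAi2, against 15.9, 11.5 and 17.6 CPM in controls. The control libraries spanned the values of both lines, and the means were 94.7% of control in row_RNAi1 and 94.4% in row_RNAi2, or 75.2% and 84.5% without row_RNAi1 replicate 1 and control replicate 2. Without Ir76a, the most counted Ir gene, the sum was 9.32 and 7.62 CPM in row_RNAi1 heads and 7.87, 10.5 and 11.4 CPM in row_RNAi2, against 11.7, 9.09 and 13.3 CPM in controls, and the groups still overlapped.

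**Figure D2:**
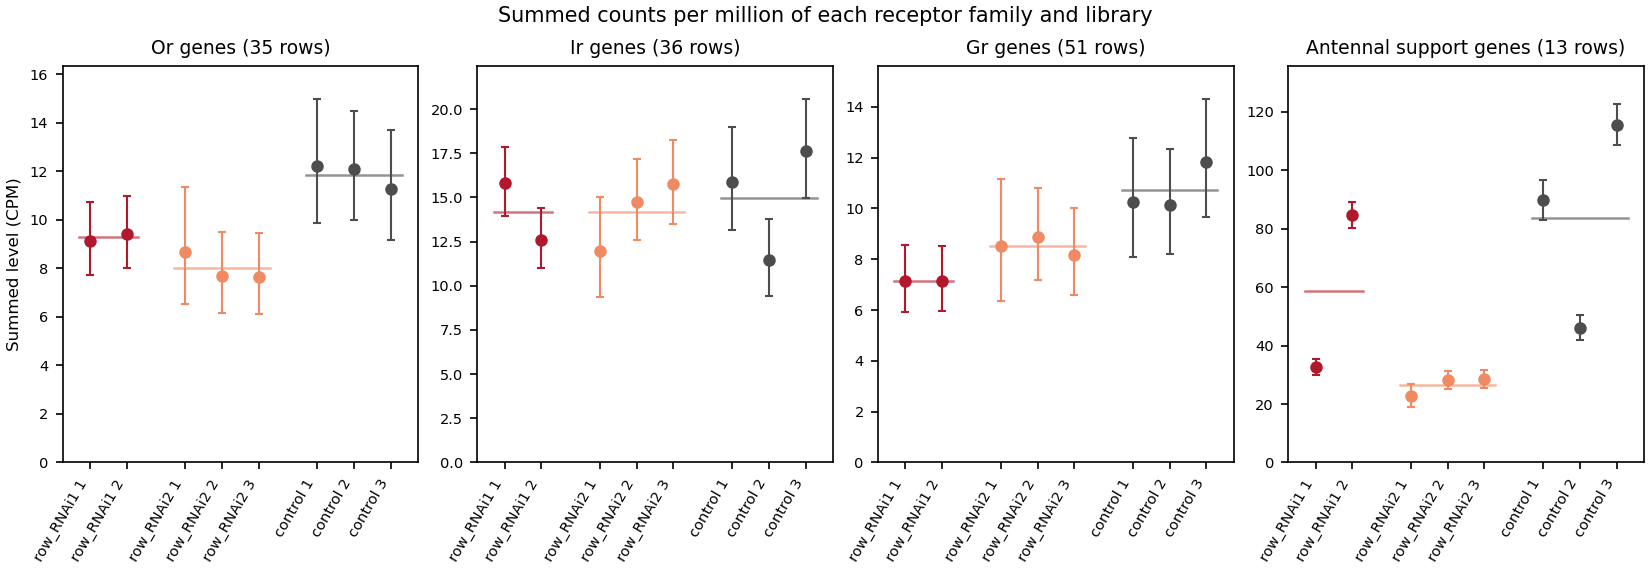
Summed level in CPM (y axis) of the Or, Ir and Gr genes and of 13 antennal support genes in each library (x axis), with 95% exact Poisson intervals and horizontal lines at group means. Or and Gr sums of the 5 knockdown libraries lie below those of the 3 controls, Ir sums overlap, and the antennal support genes split the libraries of a group, with 32.7 and 84.7 CPM in row_RNAi1 heads and 46.2 CPM in control replicate 2.

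Gene by gene, 13 receptor genes passed the low-count filter (about 0.994 CPM in at least 2 libraries) and were tested, and 109 were not. Averaged over the lines, 2 of the 13 were called, Orco and Or59c, both lower. That share, 15.4%, is near the 17.8% of all 9442 tested genes called in this comparison (edgeR BH-adjusted p under 0.05), where 8.56% were called lower and 9.24% higher. The median log2 fold change of the 13 was -0.41, against -0.01 over all genes tested. A gene can pass the filter through its control libraries alone, as Or59c did, so neither the count nor the median speaks for receptor genes at large. The same 2 genes had all 5 knockdown libraries below all 3 controls, an arrangement held by 8.28% of all genes tested, and 0 of the 13 had all knockdown libraries above all controls, which 8.92% of all genes had.

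Orco, the co-receptor of the Or family, fell in both lines. It stood at 1.39 and 1.21 CPM in row_RNAi1 heads (23 and 21 counts) and at 0.984, 1.27 and 0.711 CPM in row_RNAi2 (6, 14 and 8 counts), against 2.63, 2.99 and 3.01 CPM in controls (20, 29 and 27 counts). The lowest control library was well above the highest knockdown library. Mean levels were 1.30 ± 0.126 CPM in row_RNAi1 heads (SD, n = 2) and 0.987 ± 0.277 CPM in row_RNAi2 heads (SD, n = 3), against 2.88 ± 0.218 CPM in controls (SD, n = 3), or 45.3% and 34.3% of control. The log2 fold change was -1.34 over both lines (SE 0.28, edgeR BH-adjusted p = 0.00194), -1.14 in row_RNAi1 (SE 0.32, adjusted p = 0.017) and -1.54 in row_RNAi2 (SE 0.34, adjusted p = 0.00504). Orco was the only one of the 13 called in either line alone, where the call rate over all genes was 21.2% in row_RNAi1 (11.2% higher, the remainder lower) and 10.8% in row_RNAi2 (5.49% higher, 5.34% lower). With 1 of 13, the receptor genes were called at 7.69% in each line. The average call held when any 1 library was left out, with an edgeR BH-adjusted p of 0.00197 to 0.0151. The call in row_RNAi1 was lost in edgeR without row_RNAi1 replicate 1 (adjusted p = 0.102), row_RNAi1 replicate 2 (0.169) or control replicate 2 (0.0531), and in DESeq2 (0.0968).

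The Ir co-receptors Ir25a and Ir76b, which serve smell, taste and, for Ir25a, temperature and humidity sensing, were not called. Ir25a had 3.09 and 3.29 CPM in row_RNAi1 heads and 1.48, 3.17 and 3.82 CPM in row_RNAi2, against 4.07, 3.10 and 5.02 CPM in controls, and the groups overlapped. Its log2 fold change over both lines was -0.39 (SE 0.25, edgeR BH-adjusted p = 0.356). Ir76b had 2.12 and 1.44 CPM in row_RNAi1 heads and 2.95, 1.36 and 2.40 CPM in row_RNAi2, against 2.36, 2.37 and 3.23 CPM in controls. Both row_RNAi1 libraries lay below the controls and row_RNAi2 overlapped them, for a mean log2 change of -0.45 (SE 0.29, adjusted p = 0.356). Ir8a, which pairs with acid-sensing antennal subunits, was too rare to test, with 4 counts in row_RNAi1, 2 in row_RNAi2 and 1 in controls. Whether the fall of Orco exceeded the differences of Ir25a and Ir76b was not tested.

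**Figure D3:**
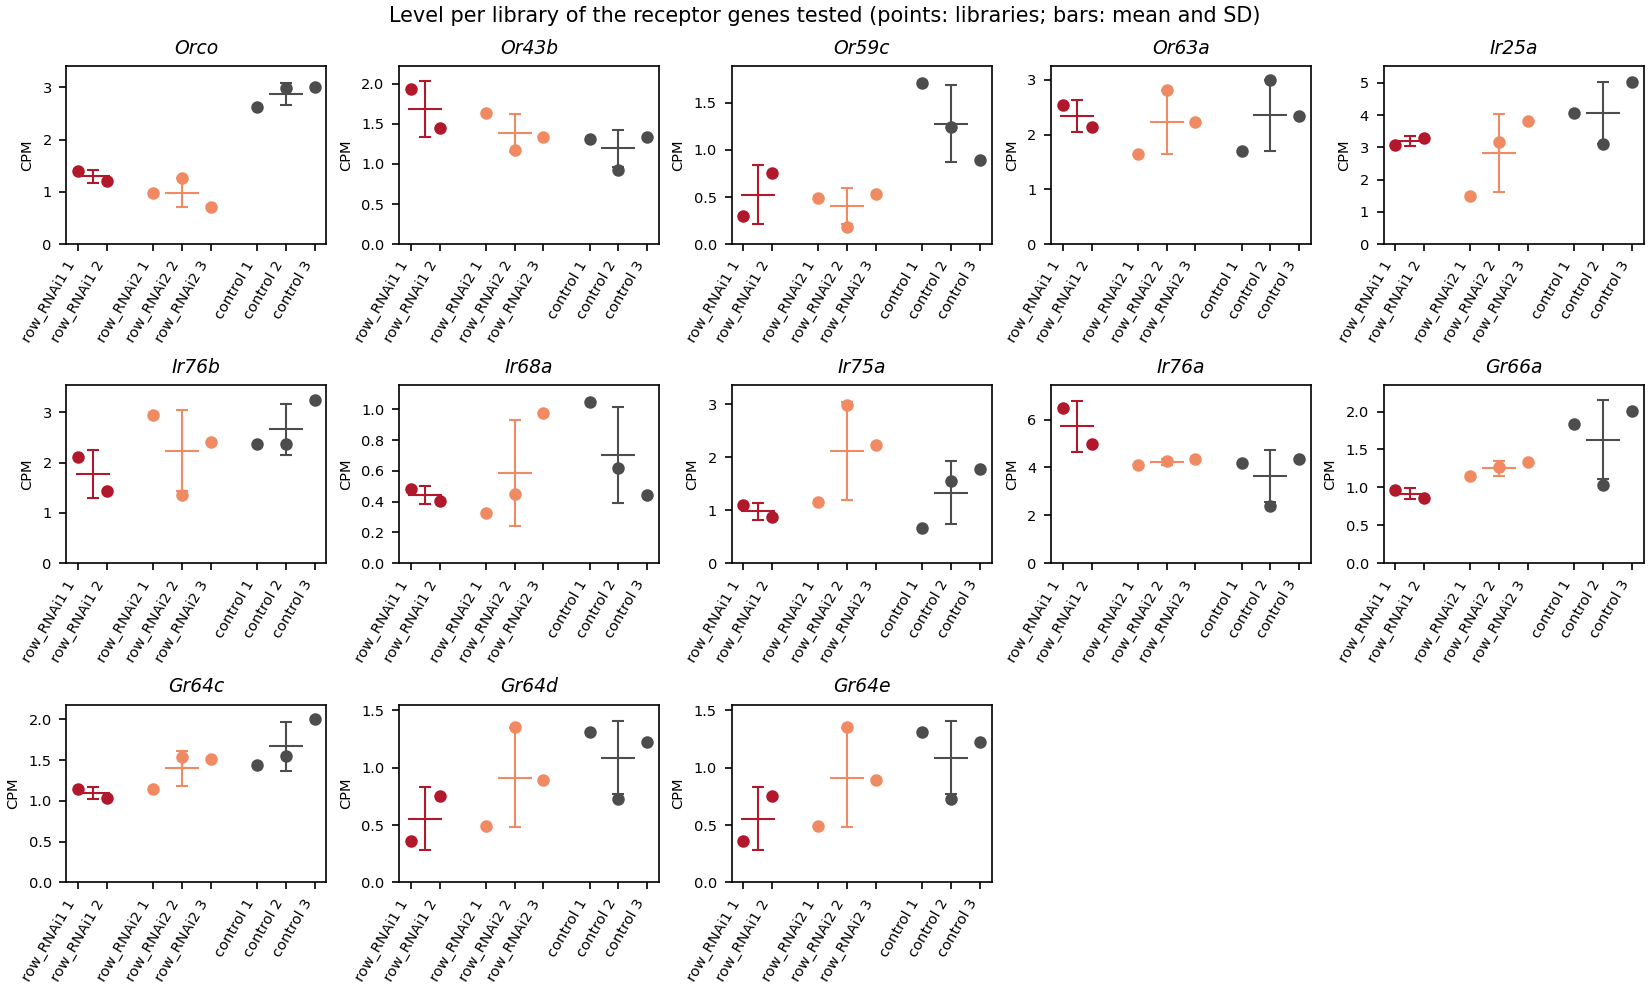
Level in CPM (y axis, from 0) of the 13 tested receptor genes in each library (x axis), with the group mean and SD as bars. Orco and Or59c are lower in all 5 knockdown libraries than in all 3 controls, and in the other 11 panels the knockdown libraries overlap the controls.

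Or59c, a tuning receptor of the maxillary palp, fell on average over the lines. It had 0.303 and 0.751 CPM in row_RNAi1 heads (5 and 13 counts) and 0.492, 0.181 and 0.534 CPM in row_RNAi2 (3, 2 and 6 counts), against 1.71, 1.24 and 0.892 CPM in controls (13, 12 and 8 counts). The lowest control exceeded the highest knockdown library by little. The average log2 fold change was -1.45 (SE 0.44, edgeR BH-adjusted p = 0.0294), and neither line passed alone, with -1.23 in row_RNAi1 (SE 0.51, adjusted p = 0.101) and -1.67 in row_RNAi2 (SE 0.54, adjusted p = 0.0619). The average call was lost in edgeR without row_RNAi1 replicate 1 (adjusted p = 0.145) or row_RNAi2 replicate 2 (0.0734) and in DESeq2 (0.121), and without control replicate 1 or 2 the gene no longer passed the filter. The average call was also lost with the replicate block and with all knockdown libraries as 1 group, and in 6 of 13 alternatives in all. Or59c overlaps CG43795 on the opposite strand, and how strand was counted is not stated. CG43795 stood at 18.3 and 19.1 CPM in row_RNAi1 heads and 27.2, 19.4 and 22.9 CPM in row_RNAi2, against 18.9, 20.1 and 18.2 CPM in controls, and was not called.

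The 7 palp Or genes (Or33c, Or42a, Or46a, Or59c, Or71a, Or85d and Or85e) together stood at 1.75 and 2.19 CPM in row_RNAi1 heads and at 1.15, 0.724 and 1.07 CPM in row_RNAi2, against 3.41, 2.58 and 1.67 CPM in controls. Only row_RNAi2 lay wholly below the controls, and these sums rest on 7 to 38 counts per library. Or71a, a receptor for plant phenolics, overlaps Plp and had 13 and 13 counts in row_RNAi1 and 4, 2 and 3 in row_RNAi2, against 6, 5 and 3 in controls.

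Tuning receptors of the antenna gave few reads and no call. The 19 antennal tuning Or genes with a row, of 39 listed, summed to 2.66 and 3.003 CPM in row_RNAi1 heads and 3.93, 2.26 and 2.58 CPM in row_RNAi2, against 2.76, 2.17 and 2.68 CPM in controls. The libraries of all groups were interleaved. Most of these reads were from Or43b, which overlaps Cul1 on the opposite strand. Or43b had 1.94 and 1.44 CPM in row_RNAi1 heads and 1.64, 1.18 and 1.33 CPM in row_RNAi2, against 1.31, 0.929 and 1.34 CPM in controls (average log2 fold change 0.35, SE 0.32, edgeR BH-adjusted p = 0.549). Or67d, the receptor of the male pheromone cis-vaccenyl acetate, had 3 and 4 counts in row_RNAi1 and 6, 2 and 1 in row_RNAi2, against 3, 5 and 1 in controls.

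Receptors best known from the larval olfactory organ were also counted in these heads. Or63a gave the most Or reads, and had 2.54 and 2.14 CPM in row_RNAi1 heads and 1.64, 2.80 and 2.22 CPM in row_RNAi2, against 1.71, 2.99 and 2.34 CPM in controls. Its groups overlapped fully, with a mean log2 change of -0.04 (SE 0.27, edgeR BH-adjusted p = 0.944). Or63a overlaps no other annotated gene in the Release 6 annotation. Or45b lay below the filter, with 0 and 2 counts in row_RNAi1 and 3, 4 and 5 in row_RNAi2, against 8, 9 and 7 in controls. In CPM this was 0 and 0.116 in row_RNAi1 and 0.492, 0.362 and 0.445 in row_RNAi2, against 1.05, 0.929 and 0.781 in controls, so that the groups did not overlap. When all genes with a count were tested, edgeR called Or45b over both lines (log2 fold change -2.40, SE 0.73, BH-adjusted p = 0.0105) and in row_RNAi1 (adjusted p = 0.00309), but not in row_RNAi2, and DESeq2 made the same pair of calls. That unfiltered edgeR fit gave the antennal gene Obp83a, with controls from 1.14 to 23.3 CPM, an adjusted p of 2.08e-38, against 0.0372 with the filter. The p-values of the unfiltered fit may thus understate the spread between libraries. An antisense RNA, CR45281, overlaps Or45b. Or1a overlaps CG3777 on the same strand and had 15 counts in row_RNAi1 and 10 in row_RNAi2, against 13 in controls.

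Among tuning Ir genes, Ir76a and Ir75a stood out by count, and neither was called. Ir76a, which responds to amines in the antenna, had 6.47 and 4.97 CPM in row_RNAi1 heads and 4.10, 4.25 and 4.36 CPM in row_RNAi2, against 4.20, 2.37 and 4.35 CPM in controls. Both row_RNAi1 libraries were above every control. The log2 fold change in row_RNAi1 was 0.67 (SE 0.25, edgeR BH-adjusted p = 0.0702) and in row_RNAi2 0.24 (SE 0.25, adjusted p = 0.677). It passed in row_RNAi1 with limma voom (adjusted p = 0.0439), with no low-count filter (0.0305), and without control replicate 3 (0.0416). The fit with no filter carries the limit given for Or45b. CG14102 overlaps Ir76a on the opposite strand and stood at 2.60 and 2.19 CPM in row_RNAi1 heads and 3.61, 2.71 and 2.58 CPM in row_RNAi2, against 1.84, 2.37 and 0.669 CPM in controls.

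Ir75a, an acid-sensing subunit, had 1.09 and 0.866 CPM in row_RNAi1 heads and 1.15, 2.98 and 2.22 CPM in row_RNAi2, against 0.656, 1.55 and 1.78 CPM in controls. Its levels in row_RNAi2 were spread over more than the control range. The difference between the lines, row_RNAi2 minus row_RNAi1, was 1.19 on the log2 scale (SE 0.42, edgeR BH-adjusted p = 0.0867), and passed without row_RNAi2 replicate 1 (adjusted p = 0.0375). Ir68a, a subunit of humidity sensing, had 0.484 and 0.404 CPM in row_RNAi1 heads and 0.328, 0.452 and 0.978 CPM in row_RNAi2, against 1.05, 0.62 and 0.446 CPM in controls, with a mean log2 change of -0.38 (SE 0.47, adjusted p = 0.669). The 11 antennal tuning Ir genes summed to 9.56 and 7.22 CPM in row_RNAi1 heads and 6.39, 8.50 and 8.63 CPM in row_RNAi2, against 7.61, 5.47 and 7.92 CPM in controls. The 6 taste Ir genes gave at most 7 counts in a library.

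The tested gustatory receptors of sweet and bitter neurons had lower means in both lines, without a call. Gr66a, a marker of bitter neurons, had 0.968 and 0.866 CPM in row_RNAi1 heads and 1.15, 1.27 and 1.33 CPM in row_RNAi2, against 1.84, 1.03 and 2.01 CPM in controls. Control replicate 2 lay among the row_RNAi2 libraries. The log2 fold change was -0.80 in row_RNAi1 (SE 0.39, edgeR BH-adjusted p = 0.174) and -0.34 in row_RNAi2 (SE 0.37, adjusted p = 0.68). The 6 bitter receptors with a row (Gr22e, Gr32a, Gr33a, Gr47a, Gr66a and Gr93a) summed to 2.06 and 1.91 CPM in row_RNAi1 heads and 1.64, 2.53 and 2.40 CPM in row_RNAi2, against 3.15, 2.58 and 3.57 CPM in controls. The highest knockdown library and the lowest control differed by less than 1 count is worth.

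Gr64c, a sugar receptor of the Gr64 cluster, had 1.15 and 1.04 CPM in row_RNAi1 heads and 1.15, 1.54 and 1.51 CPM in row_RNAi2, against 1.44, 1.55 and 2.01 CPM in controls. The log2 fold change was -0.61 in row_RNAi1 (SE 0.36, edgeR BH-adjusted p = 0.27) and -0.22 in row_RNAi2 (SE 0.34, adjusted p = 0.794). Gr64d and Gr64e shared 0.363 and 0.751 CPM in row_RNAi1 heads and 0.492, 1.36 and 0.889 CPM in row_RNAi2, against 1.31, 0.723 and 1.23 CPM in controls. These groups overlapped. Gr5a, the trehalose receptor, had 1 count in row_RNAi1, 0 in row_RNAi2 and 3 in controls. The 8 sugar receptors with a row summed to 2.42 and 3.12 CPM in row_RNAi1 heads and 2.29, 4.70 and 3.65 CPM in row_RNAi2, against 4.33, 4.03 and 4.91 CPM in controls, with row_RNAi1 below the controls and row_RNAi2 overlapping them.

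Gr28b, which has isoforms for warmth, light and bitter sensing, had 8 and 7 counts in row_RNAi1 and 4, 4 and 4 in row_RNAi2, against 8, 5 and 8 in controls, and lay below the filter. In CPM it was 0.484 and 0.404 in row_RNAi1 and 0.656, 0.362 and 0.356 in row_RNAi2, against 1.05, 0.516 and 0.892 in controls. The carbon dioxide receptor genes Gr21a and Gr63a together had 0 and 1 counts in row_RNAi1 and 2, 4 and 2 in row_RNAi2, against 1, 0 and 0 in controls. In control replicate 3, where both had 0 counts, the 95% exact Poisson interval of their sum reached 0.411 CPM. Both genes lay below the filter.

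**Figure D4:**
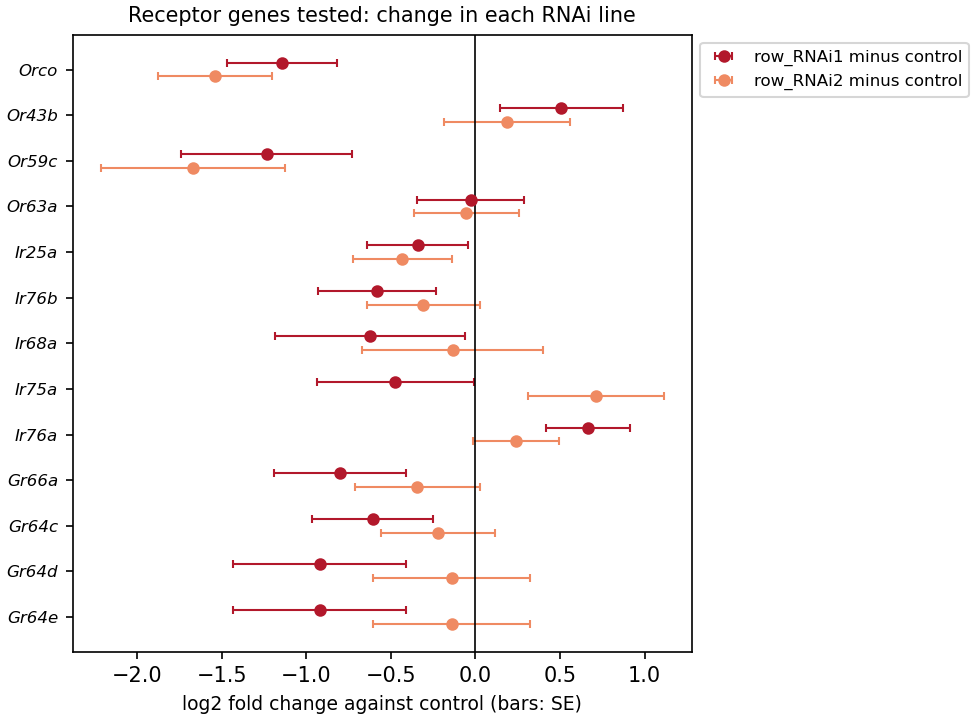
Log2 fold change of each tested receptor gene against control (x axis; bars are SE) in row_RNAi1 (red) and row_RNAi2 (orange), both set against the same 3 control libraries. Orco and Or59c lie below -1 in both lines, and Ir75a has -0.47 in row_RNAi1 and 0.71 in row_RNAi2.

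Of the 109 receptor genes below the filter, 53 had a lower and 49 a higher mean in row_RNAi1 than in controls, and 55 had a lower and 38 a higher mean in row_RNAi2. The share with a lower mean was 48.6% in row_RNAi1 and 50.5% in row_RNAi2, beside 40.5% and 37.6% of the 4230 other genes below the filter. Means equal to control count in these shares: 7 and 16 of the 109, and 831 and 371 of the 4230. Of the 4230, 1713 were lower and 1686 higher in row_RNAi1, and 1592 lower and 2267 higher in row_RNAi2. The ties thus hold down the row_RNAi1 share of the other genes. Summed, they stood at 9.80 and 9.24 CPM in row_RNAi1 heads and 11.1, 8.14 and 8.36 CPM in row_RNAi2, against 12.7, 11.5 and 11.8 CPM in controls. The 4230 other genes below the filter summed to 516 and 538 CPM in row_RNAi1 heads and 548, 551 and 688 CPM in row_RNAi2, against 526, 516 and 995 CPM in controls, and there the groups overlapped. Of the 109, Or45b had all knockdown libraries below all controls, as had 1.71% of all 4339 genes below the filter. In the other direction, where the share was 1.47%, Gr93a, a caffeine receptor of bitter neurons chosen after its values were seen, had all knockdown libraries above all controls, with 4 and 2 counts in row_RNAi1 and 1, 2 and 2 in row_RNAi2, against 0, 1 and 0 in controls.

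Between the lines, edgeR called 0 of the 13 tested receptor genes, while it called 11.3% of all genes (4.98% higher and 6.33% lower in row_RNAi2). Ir75a was the 1 receptor gene with an unadjusted edgeR p below 0.05. Limma voom and DESeq2 also called 0. For Orco the difference, row_RNAi2 minus row_RNAi1, was -0.40 (SE 0.38, adjusted p = 0.603).

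A further comparison set the receptors beside other genes of the antenna. The list held 13 genes that act around antennal receptors, among them odorant-binding proteins, the membrane protein Snmp1 and the esterase Jhedup. Of the 11 tested, 4 were called lower over both lines and 0 higher. That is 36.4%, beside 17.8% of all genes tested (8.56% lower and 9.24% higher). On the log2 scale lush fell by 2.17, Obp83a by 2.56, Obp28a by 0.78 and Obp19a by 3.77. Obp83a and Obp19a were above the filter level in the controls and, among knockdown libraries, in row_RNAi1 replicate 2 alone. Both thus needed the control libraries to pass the filter. The Obp83a call (edgeR BH-adjusted p = 0.0372) was lost in 9 of 16 alternatives, with a log2 change of -4.94 without row_RNAi1 replicate 2 and of -1.66 without control replicate 3, where it was lost (adjusted p = 0.268). It was also lost without row_RNAi2 replicate 1 (0.0674), 2 (0.0949) or 3 (0.0662) and control replicate 1 (0.093), and in DESeq2 (0.21), limma voom (0.171), the replicate block (0.0591) and the fit of all knockdown libraries as 1 group (0.343). Obp19a ran from -5.77 to -3.30 with 1 library left out and stayed called there, with -5.77 without row_RNAi1 replicate 2, but was lost in DESeq2 (adjusted p = 0.0545) and with all knockdown libraries as 1 group (0.0555). The list summed to 32.7 and 84.7 CPM in row_RNAi1 heads and 22.6, 28.1 and 28.5 CPM in row_RNAi2, against 89.8, 46.2 and 116 CPM in controls. Row_RNAi1 replicate 1 and control replicate 2 thus stood apart from the other library or libraries of their groups, and row_RNAi2 was low throughout. The means were 58.7 CPM in row_RNAi1 heads and 26.4 CPM in row_RNAi2, against 83.8 CPM in controls. Without those 2 libraries the sums were 82.5% of control in row_RNAi1 and 25.7% in row_RNAi2. Without them Obp83a had a log2 change of -2.65 and Obp19a one of -3.79. Those 2 libraries were singled out by their values in these same genes, so leaving them out narrows the spread by design. With 2 libraries in row_RNAi1, which of them is the unusual one cannot be told. The number called was 8 of 11 without control replicate 2 alone, where 13.9% of all genes were called, and the same limit holds there. Obp59a, Obp84a and a5 were at 0 in control replicate 2 but not in the other controls, and Obp59a and a5 were at 0 in row_RNAi1 replicate 1 and in all row_RNAi2 libraries.

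Obp83a, an abundant binding protein of the third antennal segment, had 0.242 and 13.3 CPM in row_RNAi1 heads and 0.656, 0.543 and 0.711 CPM in row_RNAi2, against 13.1, 1.14 and 23.3 CPM in controls. Orco did not share this split: it was 2.99 CPM in control replicate 2, between the 2.63 and 3.01 CPM of the other controls, and 1.21 CPM in row_RNAi1 heads replicate 2, where Obp83a was as high as in control replicate 1. The Or sums did not follow it either, with 12.1 CPM in control replicate 2, against 12.2 and 11.3 CPM in the other controls, and 9.14 and 9.41 CPM in row_RNAi1. Among the controls the Ir sum was lowest in control replicate 2, at 11.5 CPM against 15.9 and 17.6 CPM. In row_RNAi1 the Ir sum was higher in replicate 1 (15.8 CPM) than in replicate 2 (12.6 CPM). Leaving out both row_RNAi1 replicate 1 and control replicate 2, Orco had a mean log2 change of -1.36 (edgeR BH-adjusted p = 0.0453), and its calls in row_RNAi1 (0.209) and row_RNAi2 (0.051) were lost. What part the antennal content of a library had in the receptor levels was not tested.

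The gene lush, which encodes the binding protein for cis-vaccenyl acetate, was lower in all 5 knockdown libraries than in all 3 controls. It passed the filter through its control libraries alone, as Or59c did. It had 0.726 and 0.982 CPM in row_RNAi1 heads and 0.164, 0.543 and 0.178 CPM in row_RNAi2, against 1.71, 2.58 and 2.79 CPM in controls. The average log2 fold change was -2.17 (edgeR BH-adjusted p = 0.000294). Snmp1, a membrane protein of pheromone-sensing neurons, had 4.05 and 4.79 CPM in row_RNAi1 heads and 4.26, 4.79 and 3.91 CPM in row_RNAi2, against 4.59, 6.505 and 4.68 CPM in controls, and was not called.

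Calls in the other lists over both lines stand beside the 17.8% of all genes called in that comparison. Of 9 tested transcription factors of receptor choice and sensillum formation 0 were called, with 0 at an unadjusted p under 0.05. Among them acj6, which is needed for the choice of many Or genes, had a mean log2 change of -0.49 (edgeR BH-adjusted p = 0.282). Of 3 tested chordotonal genes, which mark Johnston's organ in the second antennal segment, 0 were called, with 0 at an unadjusted p under 0.05. Their list of 8 summed to 7.62 and 7.80 CPM in row_RNAi1 heads and 6.56, 6.15 and 6.05 CPM in row_RNAi2, against 8.01, 5.27 and 7.03 CPM in controls. Of 4 tested taste organ genes 1 was called lower and 1 higher, or 50%, with 4 at an unadjusted p under 0.05. Obp19b fell by 0.74 and Obp49a rose by 0.33 on the log2 scale, while ppk23 (-1.34) and ppk29 (1.05) were not called. In row_RNAi1 alone 2 of the 4 were called lower and 1 higher, against 21.2% of all genes called. Of 6 tested neuron genes 0 were called, with 1 at an unadjusted p under 0.05. Of 7 photoreceptor genes 1 was called, the arrestin gene Arr1, which fell by 0.23 on the log2 scale (edgeR BH-adjusted p = 0.00439). Of 4 glia genes 1 was called, the glutamine synthetase gene Gs2, which fell by 0.31 (adjusted p = 0.00265), and both had all knockdown libraries below all controls.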

How the data were processed

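The authors deposited 1 table of raw counts for 13781 gene symbols in 8 libraries, and each count column matched a sample title. Per the labels' protocols, library preparation followed RNAtag-Seq. The aligner STAR and the build dm3 are named in the submitters' processing notes. The counter, annotation, strand setting and molecular identifiers are not given in the sources used here. Overlaps between genes come from the Release 6 annotation, a later build, so no coordinates are given.

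The deposited counts were scaled and tested with edgeR 4.0.16 under R 4.3.3. TMM factors ran from 0.921 to 1.09. Genes were filtered with filterByExpr, leaving 9442. A 3-group quasi-likelihood model gave 4 contrasts, with Benjamini-Hochberg adjustment over all genes tested. Alternatives used DESeq2 1.42.0, limma 3.58.1, other filters, a replicate block and left-out libraries. On simulated data with 200 changed genes, the contrast of both lines recovered 100.0% of 4-fold and 89.9% of 2-fold changes. Each share is over 99 changed genes tested among 9368, and recovery at receptor gene levels was not measured separately. The median control level of the genes tested was 15.5 CPM, and the highest receptor gene, Ir25a, had a control mean of 4.06 CPM. The shares thus do not give the power for receptor genes.

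Genes named are those called in any contrast, the 4 co-receptors, the 5 with the highest control level in each family, and listed antennal and other genes with the smallest p. Other genes named were chosen after their values were seen. Members and lists were chosen with earlier results of these data known.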

Additional observations from a re-analysis of the deposited data

Results flagged for a closer look

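None of the 13 tested receptor genes was called between the lines, which does not show that they were alike. Some of the other listed genes were called in the edgeR quasi-likelihood test (row_RNAi2 minus row_RNAi1, Benjamini-Hochberg adjusted p), a comparison that called 11.3% of all genes tested. The log2 differences were negative for the esterase gene Jhedup at -1.15 (adjusted p = 0.00812), the binding protein gene Obp28a at -0.69 (0.0065) and Xbp1 at -0.299 (0.0402). The differences were positive for onecut at 0.343 (0.036), nrv2 at 0.328 (0.0107), norpA at 0.305 (0.0226), Eaat1 at 0.281 (0.0408) and Arr1 at 0.232 (0.0316).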

How the results depend on the processing

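The number of receptor genes called over both lines, 2 as reported, was 1 with all knockdown libraries as 1 group, 1 with the replicate block, 1 without both control replicate 2 and row_RNAi1 replicate 1, and 1 to 3 with 1 library left out (1 without row_RNAi2 replicate 2, control replicate 1 or control replicate 2, and 3, with Or45b past the filter, without row_RNAi1 replicate 2, row_RNAi2 replicate 1 or control replicate 3). Orco was called in each of these. In row_RNAi1 the 1 call became 2 with limma voom, 3 with no low-count filter, 0 without that pair of libraries, and 0 to 3 with 1 library left out (0 without row_RNAi1 replicate 1 or control replicate 2, 2 without row_RNAi2 replicate 1, 3 without control replicate 3). In row_RNAi2 it was 0 without that pair and 1 whichever library was left out, and between the lines it was 0 to 1. With a mean of at least 5 CPM required, 0 receptor genes were left to test, so each count was 0. The row_RNAi1 calls were out of 13 receptor genes tested with limma voom, where 22.5% of all genes were called. With no filter they were out of 122, where 15.5% of all genes were called. The limit given for the Or45b p-values holds for every edgeR result with no filter. Where row_RNAi1 kept 1 library, it was assumed to vary like the other groups. The 8 calls among the other lists became 14 with no filter, 3 with all knockdown libraries as 1 group, and 7 to 13 with 1 library left out (13 without row_RNAi1 replicate 2). The other lists had 44 genes tested, or 56 with no filter. Over all genes, 1680 (17.8%) were called over both lines, against 839 (8.89%) with all knockdown libraries as 1 group and 13.6% with no filter. No pairing by replicate number was seen: 0 of 7 same-numbered pairs had deviations correlated above 0.1 (-0.143 to 0.0546). Deviations within a group of 2 or 3 libraries depend on each other, so this check is limited. The replicate block left Or59c with an edgeR adjusted p of 0.0508.

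The change of row ran from -1.30 to -1.05 with 1 library left out. On raw totals, the row_RNAi1 sums were 70.9% (Or) and 60.5% (Gr) of control. Without Orco the Or sums were 88.9% in row_RNAi1 and 78.2% in row_RNAi2. Of the 11 tested antennal support genes, 4 were called, against 2 in DESeq2 or with all knockdown libraries as 1 group, 2 of 4 tested with at least 5 CPM, and 10 of 13 with no filter. Over all genes the shares called were 17.8% as reported, 12.9% in DESeq2, 8.89% with 1 group, 20.2% with at least 5 CPM and 13.6% with no filter. The antennal counts, the sum without Orco, the removal of overlapping genes and the left-out libraries for sums were chosen after seeing the data. With 1 library left out, the row_RNAi1 and row_RNAi2 sums ran from 76.4% to 79.5% and 64.7% to 69.1% of control for Or, 84.0% to 105% and 84.5% to 104% for Ir, and 64.8% to 70.3% and 77.3% to 83.7% for Gr. Depth limits these results to the 13 genes tested.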
